A study of Homo sapiens with 20 samples.

Results

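The sites compared here are the STAG1 and CTCF peaks of WT M14 cells. Members were all peaks on chromosomes 1 to 22 and X in the 2 WT STAG1 and 2 WT CTCF lists, 370463 of the 1599606 peaks on these chromosomes in the 16 lists of the study. A STAG1 site that overlapped a CTCF peak of the same set by at least 1 bp was called CTCF-bound, and the others CTCF-free. CTCF sites were divided in the same way into sites with and without STAG1.

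The study performed ChIP-seq, the sequencing of DNA precipitated with an antibody, to locate cohesin subunits and CTCF in M14, an established human melanoma line. Set 1 WT cells carried a single doxycycline-inducible shRNA against STAG2 and were cultured for 5 days without doxycycline. The set 2 labels give M14 and wild type, and name neither the shRNA nor a treatment, while the study's methods describe the same shRNA line. Each group is 1 line in 1 state, and nothing in the labels says that the sets came from separate cultures. The sets also differed in size selection of the libraries (200 to 600 bp on beads in set 1, 200 to 500 bp from a gel in set 2), and in the peak threshold, so the comparison was made within each set. Values are given for each set and as mean ± SD over the 2 sets. An exact two-sided paired test over 2 sets cannot give a p below 0.5, so none was run, and sites were not treated as replicates.

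Cohesin is a ring-shaped complex that extrudes and holds loops of chromatin. Its ring contains SMC1A, SMC3 and RAD21 and carries either STAG1 or STAG2. CTCF binds DNA through zinc fingers at an asymmetric motif and can halt cohesin there, which leaves cohesin on the side of CTCF that faces the inside of the loop. Cohesin is also found at active promoters and enhancers, where other DNA-binding proteins take the place of CTCF.

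Sequences are shown for the strongest CTCF-free STAG1 sites and the strongest CTCF sites without STAG1, chosen by rank. They describe these sites and not their whole classes. All are the GRCh37 (hg19) reference, 30 bases read 5′ to 3′ on the strand named, with the motif match nearest to the set 1 summit in capitals. The strongest 5 CTCF-free STAG1 sites in both sets were all at promoters and had no CTCF core motif. They are shown with TGACGTCA, the cyclic AMP response element (CRE), with its first bases TGACG where the full element was absent, or with the ETS motif CCGGAAG. The CRE letters were chosen after the sequences were seen.
C1D, chr2:68290133-68290162, plus strand: cgatgacgacaaTGACGcgccggctctgcc
CWC25, chr17:36981615-36981644, plus strand: gtcgcggaacgaTGACGtacagggctcggt
CCDC86, chr11:60609513-60609542, plus strand: gcggcgactccTGACGTCAtaggaaggcgc
NUP214, chr9:134000934-134000963, plus strand: ctgaccaagctTGACGTCAccaaagcgcgc
SPTLC1, chr9:94877658-94877687, plus strand: gccgcttccttCCGGAAGgcgggtcacaag

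The strongest 5 CTCF sites without STAG1 in both sets each had a CTCF core motif, a pattern of 11 bases, within 100 bp of the CTCF summit. It is in capitals here.
SLC29A2, chr11:66131536-66131565, plus strand: aggcttggcCCAGTAGGGGGcgccagcaag
IGHVIII-38-1, chr14:106873654-106873683, minus strand: gggctcagaaCCACTAGGGGGcgcccagga
IMPDH1, chr7:128021355-128021384, plus strand: atcatgtggCCTGTAGGGGGcgctagtgga
TRAV8-3, chr14:22320428-22320457, plus strand: tgcacttggCCTCCAGAGGGcgatgctgca
PDLIM7, chr5:176918568-176918597, plus strand: ccccagccgCCAGCAGGGGGcgcggcgtca

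Most STAG1 sites were CTCF-bound. In set 1, 53381 of 63479 STAG1 sites (84.1%) met a CTCF peak, and in set 2, 76674 of 98437 (77.9%), a mean of 81.0% ± 4.38 (SD, n = 2). CTCF peaks covered only 1.38% of the known bases of the genome in set 1 and 2.87% in set 2. The reverse share was lower. Of 86248 CTCF sites in set 1, 61.3% had a STAG1 peak, and of 122299 in set 2, 62.6%, a mean of 61.9% ± 0.926 (SD, n = 2). Both sets thus held 10098 and 21763 CTCF-free STAG1 sites, and 33398 and 45756 CTCF sites without STAG1.

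The depth behind these lists can be estimated from the fold enrichment and p-value columns. Taking a genome of 2.7 Gb, and reads extended to the width of the narrowest listed peak, both of which are assumptions, the STAG1 libraries had about 46.7 M and 71.7 M reads and the CTCF libraries 20.2 M and 37.4 M. The CTCF lists were the longer ones although their estimated depth was lower. Fold enrichment had a median of 10.3 and 4.79 over the STAG1 lists and of 13.9 and 7.15 over the CTCF lists. The CTCF core motif lay within 100 bp of the summit in 25.9% and 19.8% of CTCF sites with STAG1. It was in 0.725% and 0.729% of windows of the same length 5 kb away. Shared sites cannot check the labels, since both lists hold them. Among unshared sites, the core was at 13.4% and 9.56% of CTCF sites without STAG1 and at 1.59% and 0.675% of CTCF-free STAG1 sites.

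Sharing rose with strength in both lists. Strength is given as the percentile of a site within its own list by −log10 p, where 100 is the strongest. Among the weakest 10% of STAG1 sites, 46.8% were CTCF-bound in set 1 and 43.2% in set 2, and among the strongest 10%, 99.4% in each set. Among CTCF sites the share with STAG1 ran from 16.5% and 23.5% in the weakest 10% to 99.7% and 99.9% in the strongest. CTCF-bound STAG1 sites had a median percentile of 57.7 and 60.5 and CTCF-free sites of 15.5 and 21.0, a difference of 40.9 ± 1.85 points (SD, n = 2). The median fold enrichment was 13.9 and 6.76 at CTCF-bound sites against 4.50 and 2.94 at CTCF-free sites. The middle 50% of the fold values did not overlap between the classes, with upper quartiles of 5.29 and 3.50 at CTCF-free sites and lower quartiles of 6.45 and 3.72 at CTCF-bound sites. CTCF sites with STAG1 exceeded those without by a median of 43.9 ± 1.28 percentile points (SD, n = 2).

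**Figure D1:**
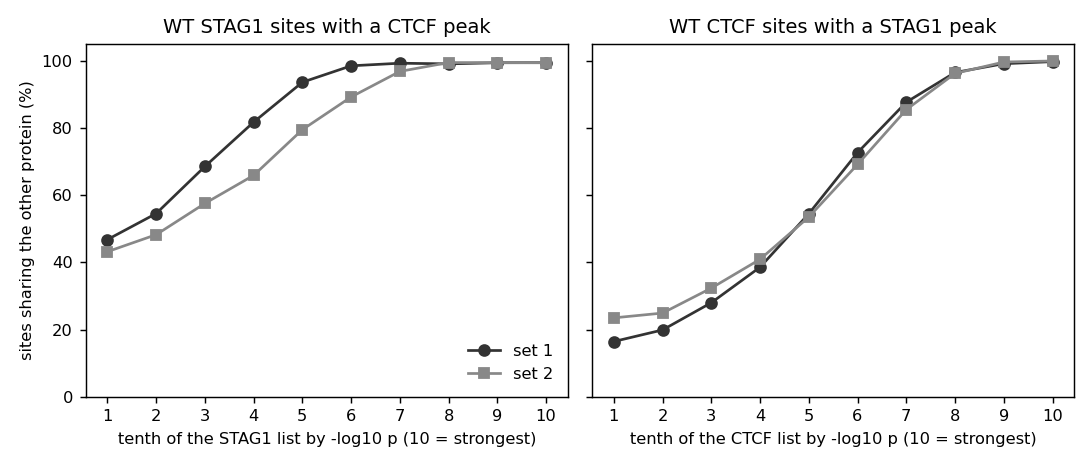
Percent of WT STAG1 sites with a CTCF peak (left) and of WT CTCF sites with a STAG1 peak (right), for each 10% of the list by −log10 p, where 10 on the x axis is the strongest; lines and symbols are the 2 sets. Sharing rises from 46.8% and 43.2% to 99.4% for STAG1 sites and from 16.5% and 23.5% to over 99% for CTCF sites.

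At shared sites the levels also moved together. Spearman's rho between the STAG1 percentile and that of the nearest CTCF peak within 1 kb was 0.737 over 53321 sites in set 1 and 0.791 over 76008 in set 2. This is a description across sites of 2 libraries that share chromatin and input, with no test. The summits lay a median of 22 bp apart in set 1 and 46 bp in set 2, and 94.3% and 77.3% of CTCF-bound STAG1 summits were within 100 bp of a CTCF summit. Peaks of CTCF-free sites were narrower, with a median width of 198 and 282 bp against 439 and 667 bp. CTCF-free sites overlap no CTCF peak by definition, and the distance expected for random places was not computed. Their nearest CTCF summit was a median of 5273 bp away in set 1 and 3872 bp in set 2, with 20.9% and 16.1% of them within 1 kb and 36.4% and 26.5% beyond 10 kb.

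Shares were also computed for each chromosome. The CTCF-bound share of STAG1 sites was highest on chromosome X, at 90.8% in set 1 and 83.6% in set 2, followed by chromosome 19 at 90.3% and 82.5%. It was lowest on chromosome 2 in set 1, at 81.1%, and on chromosome 21 in set 2, at 74.5%. CTCF sites with STAG1 were least frequent on chromosome 19 in both sets, at 51.1% and 57.6%.

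The core motif separated the STAG1 classes. It lay within 100 bp of the STAG1 summit in 25.6% of CTCF-bound sites in set 1 and 18.6% in set 2, but in 1.59% and 0.675% of CTCF-free sites, where 0.604% and 0.593% of windows 5 kb away held it. The difference was 21.0 points ± 4.29 (SD, n = 2). CTCF sites without STAG1 had the core in 13.4% and 9.56% of windows, below the sites with STAG1 but well above the 0.823% and 0.741% of windows 5 kb away. The share rose with CTCF strength also among the sites without STAG1, from 9.63% and 6.10% at percentiles up to 25 to 37.1% of 202 sites and 42.0% of 169 sites above 75. This exact pattern misses many CTCF sites, so the shares serve only to compare classes.

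Where CTCF and STAG1 shared a site, the STAG1 summit lay downstream of the CTCF core, on the 3′ side of the motif as written above. At sites with exactly 1 core within 100 bp of the CTCF summit, and for summits within 150 bp of that core, the CTCF summit had a median position of 1 bp in set 1 and −2 bp in set 2 from the centre of the core. The STAG1 summit was at a median of 20 bp in set 1, over 13325 sites, and 15 bp in set 2, over 14341, a mean of 17.5 ± 3.54 bp (SD, n = 2). It was downstream at 11071 sites and upstream at 2123 in set 1 (83.1% downstream), and at 8923 and 5293 in set 2 (62.2%). Read along the genome instead, the median was 20 bp for cores on the plus strand and −21 bp for those on the minus strand in set 1, and 13 and −18 bp in set 2, so the side turned with the motif. The middle 50% of the offsets ran from 8 to 28 bp in set 1 and from −17 to 44 bp in set 2, a wider spread.

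The offset was clearer at strong CTCF sites. Above percentile 75 of CTCF, 87.5% of STAG1 summits in set 1 and 65.5% in set 2 were downstream, against 68.2% of 236 and 54.3% of 164 at percentiles up to 25. At promoters and away from them the median was the same in set 1, 20 bp, and 13 against 16 bp in set 2. STAG2, the alternative subunit, had a similar position, with medians of 18 and 14 bp. SMC1A, a subunit of every ring, was centred on the core, with medians of 0 and 3 bp. No test of these differences was run.

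**Figure D2:**
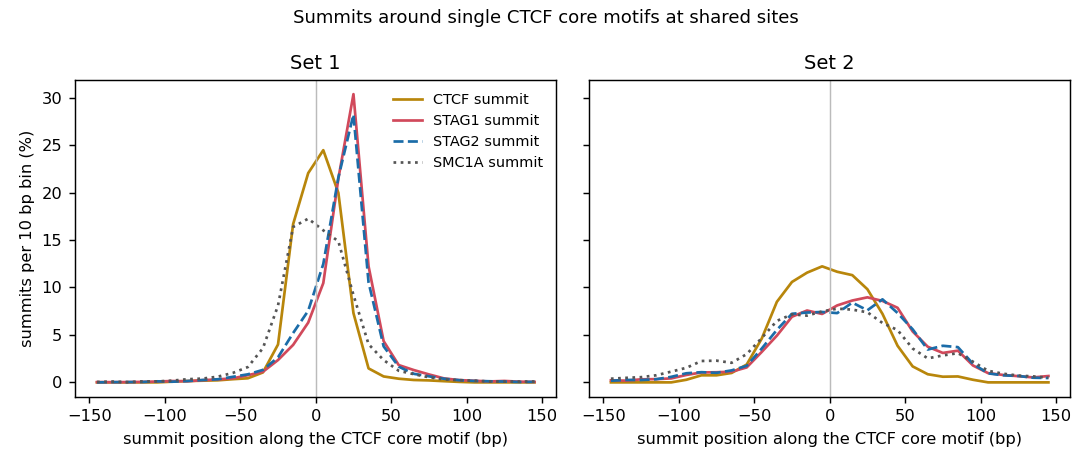
Position of CTCF, STAG1, STAG2 and SMC1A summits in bp along the CTCF core motif (0 is its centre, positive is downstream), as percent of summits per 10 bp, at shared sites with 1 core, in set 1 (left) and set 2 (right). STAG1 and STAG2 summits peak downstream, with STAG1 medians of 20 and 15 bp, whereas CTCF is centred at 1 and −2 bp, and set 2 is broader.

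The 4 strongest CTCF sites with STAG1 in both sets that had a single core in each are shown to place these medians at single loci. They were chosen by CTCF rank after the offsets were known, and the capitals mark the core.
ENSG00000279886, chr17:76247113-76247142, plus strand: tccgagtgtCCACTAGAGGGcaccaggcac
RBM17, chr10:6130767-6130796, minus strand: cgcggcagcgCCCCCAGATGGtgaggagga
NYAP1, chr7:100080970-100080999, minus strand: gcggctcagcCCAGCAGGGGGcgtgctccg
ENSG00000278954, chr17:39819124-39819153, minus strand: ccagaaatggCCACCAGGTGGtggcagaag
The STAG1 summit stood 42 and 1 bp downstream of the core at ENSG00000279886 and 30 and 34 bp downstream at ENSG00000278954, in set 1 and set 2. It stood upstream at RBM17, by −26 and −21 bp, and at NYAP1, by −63 and −110 bp. At these 2 sites the CTCF summit was also upstream, by −64 and −65 bp at RBM17 and by −31 and −33 bp at NYAP1. The strongest sites therefore include exceptions to the median.

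The promoter share of the classes did not differ in the same direction in the 2 sets. A promoter was taken as the 1 kb on either side of any annotated transcript start, which covers 7.52% of the known bases. In set 1, 32.6% of CTCF-free and 21.3% of CTCF-bound STAG1 sites were at promoters, and in set 2, 22.6% and 23.5%. The mean difference of 5.18 points was smaller than its SD of 8.63. The sign in set 2 depended on the setting, and was positive at −log10 q of at least 2 (0.787 points) and of at least 5 (8.05 points), with an overlap of at least 50% (1.45), by summits at most 100 bp apart (10.6) and with equal numbers of peaks (8.50). Likewise, CTCF sites without STAG1 were at promoters more often than those with STAG1 in set 1 (28.8% against 21.0%) and less often in set 2 (18.8% against 23.6%). This difference was positive in both sets by summits, at 12.1 and 5.24 points, and with equal numbers of peaks, at 7.78 and 1.87. CTCF-free STAG1 sites lay in introns in 40.9% and 48.3% of cases and between genes in 23.3% and 25.6%. CTCF-bound sites lay between genes more often in each set, in 30.5% and 29.1%, and also in exons, in 5.13% and 4.67% against 3.11% and 3.48%.

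**Figure D3:**
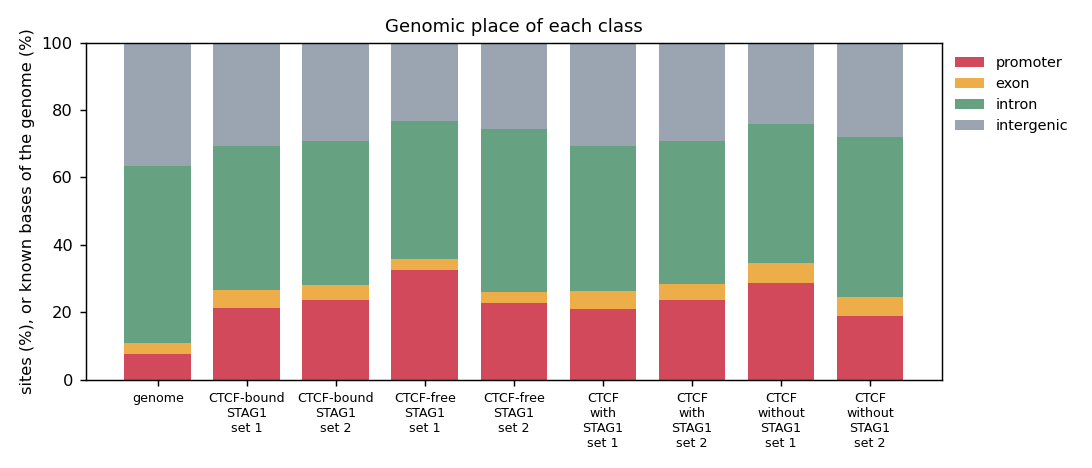
Percent of sites at promoters, in exons, in introns and between genes for each class and set, beside the percent of known genome bases in each place. All classes have more promoter sites than the 7.52% of the genome at promoters, and the order of CTCF-free and CTCF-bound sites turns between set 1 (32.6% and 21.3%) and set 2 (22.6% and 23.5%).

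Strength divided the CTCF-free sites where the class as a whole did not. Among STAG1 sites at percentiles up to 25, CTCF-free and CTCF-bound sites were at promoters in 32.9% and 33.9% of cases in set 1 and in 22.4% and 30.9% in set 2. Above percentile 75, 102 of the 102 CTCF-free sites in set 1 (100% promoter) and 97.8% of 136 in set 2 were at promoters, against 15.1% and 17.1% of CTCF-bound sites. At percentiles 50 to 75 the promoter share was 69.4% of 170 CTCF-free sites in set 1 but 20.8% of 1399 in set 2. Strong CTCF-free sites were thus few and almost entirely at promoters in both sets. CTCF sites without STAG1 were also more often at promoters above percentile 75, in 53.0% of 202 and 36.1% of 169 cases, against 21.2% and 19.9% of the sites with STAG1.

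**Figure D4:**
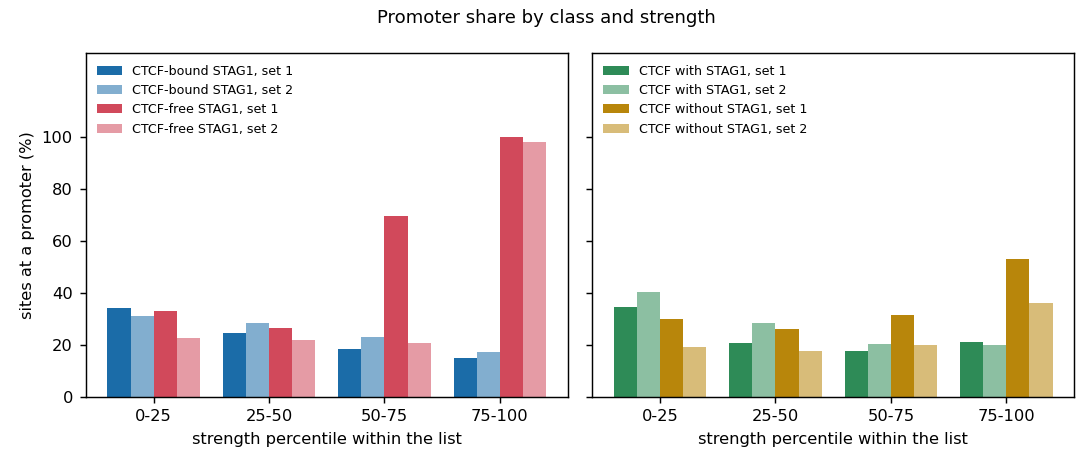
Percent of sites at promoters by strength percentile within the list, for CTCF-bound and CTCF-free STAG1 sites (left) and for CTCF sites with and without STAG1 (right); dark bars are set 1 and pale bars set 2. Above percentile 75 the CTCF-free STAG1 bars reach 100% and 97.8%, while the CTCF-bound bars are 15.1% and 17.1%.

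Other cohesin subunits were present at most STAG1 sites of both classes. Over the whole classes they were less frequent without CTCF, but the classes differ in strength. A STAG2 peak was found at 94.3% and 93.3% of CTCF-bound sites and at 72.9% and 72.0% of CTCF-free sites. SMC1A was found at 85.5% and 88.3% of CTCF-bound and at 63.0% and 76.6% of CTCF-free sites, a difference of 17.1 points ± 7.61 (SD, n = 2). At like STAG1 strength, STAG2 was less frequent at CTCF-free sites in every bin of both sets. At percentiles up to 25 it was at 70.2% against 75.7% in set 1 and 63.2% against 74.7% in set 2. Above 75 it was at 63.7% and 79.4% of CTCF-free sites, against 99.9% of CTCF-bound sites in each set. For SMC1A this order held in only some of the bins. In set 2, SMC1A was at 69.5% of CTCF-free against 66.8% of CTCF-bound sites at percentiles up to 25, at 85.2% against 77.5% at 25 to 50, at 96.0% against 94.8% at 50 to 75, and at 89.0% against 99.97% above 75. In set 1 the shares were 61.8% against 61.6%, 66.6% against 72.9%, 58.2% against 94.8% and 76.5% against 99.9% in the same order. Neither was found at 3.30% and 3.52% of CTCF-bound sites and at 17.9% and 16.3% of CTCF-free sites. CTCF sites without STAG1 mostly lacked the other subunits too. STAG2 was present at 22.7% and 24.7% of them, SMC1A at 23.5% and 26.4%, and neither at 66.5% and 62.7%.

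Across both sets, 4221 CTCF-free STAG1 sites of set 1 overlapped a CTCF-free site of set 2, 41.8% of the set 1 class, and they met 18.1% of the set 2 class. The class depended on the CTCF list. In set 2, 97.5% of the set 1 CTCF-free sites had a STAG1 peak, and 43.6% had a CTCF peak. Conversely, only 18.3% of the set 2 CTCF-free sites had a STAG1 peak in set 1, and 0.280% had a CTCF peak there. CTCF-bound sites were more stable: 52180 in set 1, 97.8% of the class, met a CTCF-bound site of set 2, and these met 65.5% of the set 2 class. For CTCF sites without STAG1 the number was 16532, which is 49.5% of the set 1 class, and 40.5% of the set 1 class had a STAG1 peak in set 2. Of the 4221 CTCF-free sites in both sets, 20.8% were at promoters and 51.2% in introns, against 21.3% and 43.3% of the CTCF-bound sites in both sets.

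Of these 4221 sites, 3343 lay away from promoters, and they differed from CTCF-bound sites away from promoters in their motifs. AP-1, the dimer of JUN and FOS family proteins that occupies many enhancers, binds TGANTCA. This was within 100 bp of the summit in both sets at 16.03% of the 3343 sites and at 4.70% of the 41069 CTCF-bound sites away from promoters. In the full classes AP-1 was at 13.9% and 20.4% of CTCF-free sites, 5.53% and 6.83% of CTCF-bound sites, and 5.91% and 6.25% of windows 5 kb from the CTCF-free sites. In set 2 the AP-1 share among CTCF-free sites rose with strength, from 18.1% at percentiles up to 25 to 28.5% at 50 to 75, and was 1.47% among the 136 sites above 75. In set 1 it was 13.9%, 15.2%, 4.12% and 0.980% in the same bins, so it fell at the upper percentiles. GGAATG, bound by the TEAD factors, differed less, at 13.3% and 14.2% of CTCF-free against 11.01% and 11.02% of CTCF-bound sites. TCACGTG, the form of E-box that the melanocyte factor MITF binds, was at 1.52% and 1.15% against 0.978% and 1.05%. For AANATGGC, bound by YY1, the values were 3.605% and 3.35% against 4.18% and 4.17%. For GCATGCGC, bound by NRF1, they were 0.812% and 0.515% against 0.463% and 0.513%. The TGACG and ETS motifs of the strongest CTCF-free sites did not separate the whole classes. TGACG was at 10.9% and 8.69% of CTCF-free against 8.56% and 8.98% of CTCF-bound sites, and CCGGAAG at 3.30% and 1.98% against 1.87% and 2.13%, so both turned in set 2. The GC box GGGCGG was at 15.8% and 8.33% of CTCF-free against 12.8% and 13.2% of CTCF-bound sites, so its direction turned as well. Over all windows of the same length on annotated starts of protein-coding genes, AP-1 was at 4.05%, GGAATG at 8.38%, TCACGTG at 2.55%, AANATGGC at 5.96%, GCATGCGC at 1.92% and the CTCF core at 1.33%. All motifs were searched on both strands, and a match is a description, not a bound site.

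The CTCF-free sites that were strong in both sets were then described, a group chosen by its STAG1 percentiles. Both percentiles were above 75 at 59 of the 4221 sites, and all 59 were at promoters, at a median of 15 bp and at most 255 bp from an annotated start. GC content in the 100 bp on either side of the summit had a median of 63.7% and ranged from 50.2% to 78.1%. Of the 59, 0 had a CTCF core in both sets, 22.03% had the ETS motif CCGGAAG, and 50 (84.7%) had TGACG. The full CRE TGACGTCA, of which TGACG is the first 5 bases, was at 15 of the 59 sites (25.4%). The TGACG and CRE letters were chosen after sequences of the strongest sites were seen, so these shares describe the sites and test nothing. At CTCF-bound promoter sites with both percentiles above 75, TGACG was at 12.9% and the CRE at 1.15% of 2354. Over all 146028 windows of the same length on annotated starts of protein-coding genes, 17.9% held TGACG, 1.23% the CRE and 8.17% the ETS motif. Of the 59 sites, 54 had TGACG or the ETS motif, and the share with either motif over other promoters is not given here.

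At these sites, chosen for a high STAG1 percentile, the other subunits ranked lower than STAG1. STAG2 had a peak in both sets at 37 of the 59 sites and SMC1A at 44, and 7 and 6 sites had none in either set. Where STAG2 had a peak, its median percentile within its own list was 19.6 in set 1 and 42.9 in set 2, while the median of STAG1 over the 59 sites was 84.9 and 93.3. SMC1A, where present, was at 35.5 and 62.5. At every site with a STAG2 or SMC1A peak, in each set, the STAG1 percentile was the higher (100%), an order that the choice of sites favours. Over all 4221 CTCF-free sites in both sets the order was the reverse, with STAG1 higher than STAG2 at 14.8% and 17.98% and higher than SMC1A at 16.7% and 11.7% of the sites with that peak. CTCF-bound promoter sites of the same STAG1 strength differed. There the median percentiles were 91.3 and 94.4 for STAG2 and 91.0 and 95.2 for SMC1A, and STAG1 was higher than STAG2 at 31.7% and 32.8% of sites. The STAG1 lists come from a single antibody, identical in both sets, and its part in this pattern was not tested.

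**Figure D5:**
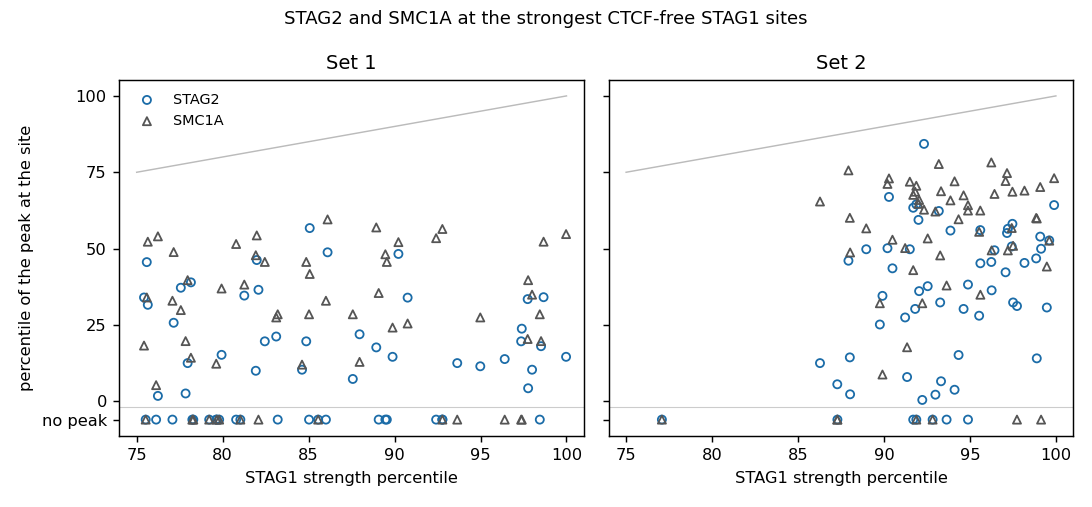
Percentile of the STAG2 (circles) and SMC1A (triangles) peak within its own list against the STAG1 percentile, for the 59 CTCF-free STAG1 sites above percentile 75 in both sets; the grey line marks equal percentiles and the bottom row sites with no peak. Every peak lies under the line, with STAG2 medians of 19.6 and 42.9 where a peak was present.

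The 5 strongest of these sites, whose sequences are given above, lay 4 to 69 bp from the start of a protein-coding gene. The site at C1D, which encodes a cofactor of the nuclear RNA exosome, was 20 bp from the start (chr2:68289759-68290428), with a STAG1 fold of 58.5 and 36.9 and STAG1 percentiles of 97.7 and 99.6. STAG2 there was at percentile 33.5 and 52.7 and SMC1A at 20.4 and 52.6, so both ranked lower in each set. At CWC25, a splicing factor gene (chr17:36981236-36981989), the STAG1 fold was 70.0 and 24.8, with STAG2 at percentile 14.6 and 45.3. CCDC86, for a nucleolar protein (chr11:60609196-60609838), had a STAG1 fold of 57.6 and 33.7, no STAG2 peak in set 1 and a STAG2 peak at percentile 14.1 in set 2. At NUP214, a nuclear pore gene (chr9:134000664-134001273), the STAG1 fold was 62.1 and 38.5 and STAG2 was at percentile 4.27 and 53.9. At SPTLC1, for a subunit of serine palmitoyltransferase (chr9:94877423-94877997), the STAG1 fold was 61.2 and 36.1, and SMC1A had no peak in either set. The other 54 include genes for splicing (SF3B5, MAGOH, MAGOHB), Mediator (MED9, MED27), a ribosomal protein (RPL8) and the exosome (EXOSC9), named here after their values were seen.

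The same profile occurred at a few CTCF-bound sites. A site was counted when its STAG1 percentile was more than 25 points above those of both STAG2 and SMC1A in each set, with a missing peak taken as 0, a limit chosen after the values were seen. This held at 44 of the 59 CTCF-free sites and at 29 of the 15573 CTCF-bound sites above percentile 75 in both sets (0.186%). All 29 were at promoters, against 15.0% of the other 15544. TGACG was at 28 of the 29 (96.6%) and at 7.87% of the others, the full CRE at 10 of 29 (34.5%) and at 0.154%. Both patterns were chosen after sequences of the strongest CTCF-free sites were seen. Among the CTCF-free sites the shares over and under the limit were nearer or turned, with TGACG at 38 of the 44 (86.4%) and at 12 of the other 15 (80%), and the full CRE at 9 of 44 (20.5%) and 6 of 15 (40%). The CTCF core was at 0 of 29 and at 34.6% of the others. Their CTCF peaks had a median percentile of 21.97 and 49.97, against 87.4 and 90.9.

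Of the 5 strongest CTCF-bound STAG1 sites in both sets, 4 had STAG2 and SMC1A peaks at percentile 89.4 or above in each set. The first was between genes, 17688 bp from the start of KCTD15, a neural crest regulator (chr19:34268795-34269504), with a STAG1 fold of 73.4 and 47.0. MMP2, a gelatinase gene, held the third in an intron (chr16:55498816-55499663), with a STAG1 fold of 66.4 and 50.6 and a core motif, shown next.
MMP2, chr16:55499200-55499229, plus strand: caaaagtggCCACCAGATGGcgcagcctat
The second, at the lncRNA ENSG00000287788, had a STAG1 fold of 71.9 and 51.7, and the fourth, at the lncRNA FOXCUT (chr6:1604339-1605341), of 73.1 and 46.8. The fifth, at the start of the lncRNA ENSG00000291202 (chr4:120375372-120376308), was of the other kind. Its STAG1 fold was 70.9 and 47.3, but STAG2 was at percentile 32.9 and 59.3, SMC1A at 8.45 and 73.6, and CTCF at 42.2 and 64.5.

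Most CTCF-free sites had no neighbour of their class. When sites of the class in both sets within 12.5 kb were joined, 2936 of the 4221 stood alone, and 30.4% had a neighbour. Of the 52180 CTCF-bound sites in both sets, 51.9% had a neighbour. A larger class meets more neighbours by number alone, and the share expected for 4221 sites was not computed. The largest groups of CTCF-free sites had 6 members. They lay at the glycosyltransferase gene ST3GAL6 (chr3:98497570-98513211), over histone genes H2AC15, H2BC14, H2BC15, H4C11 and H4C12 (chr6:27782847-27807758), and in a span with no protein-coding gene, nearest to KLF6 (chr10:4282613-4289447). The others were in MAML2, a Notch coactivator gene (chr11:95971212-95990233), and IL1RAPL1 (chrX:29678184-29684822). The sites within them were of low to middle strength. The highest STAG1 percentile in set 1 ranged from 24.8 at MAML2 to 45.7 at the histone genes. Histone genes are near-identical copies, so reads there can be misplaced. The spans at KLF6 and IL1RAPL1 held 0 CTCF peaks in either set.

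CTCF sites without STAG1 were seldom among the strongest. Only 39 of the 16532 present in both sets were above percentile 75 in each, against 20909 of 51687 with STAG1. Of the 39, 19 had STAG2 in both sets and 24 had SMC1A, and 0 lacked both subunits in both sets. Of the 20909 with STAG1, 99.9% had STAG2 and 99.8% SMC1A in both sets, and 0 lacked both subunits as well. The core motif was at 22 of the 39 (56.4%) in both sets, against 37.6% of the 20909. At a lower limit of 50 in each set there were 1410 sites without STAG1. Of these, 349 had neither STAG2 nor SMC1A in either set and 25.1% had the core. With STAG1, 15 of the 38462 sites above 50 had neither subunit, and 30.6% had the core. So CTCF sites of middle strength without a STAG1, STAG2 or SMC1A peak were found. At the top of the list, each site without STAG1 had a STAG2 or SMC1A peak in at least 1 set.

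The 5 strongest, whose sequences are given above, varied in place. The site in an exon of SLC29A2, a nucleoside transporter gene (chr11:66131068-66131960), had a CTCF fold of 101.3 and 43.6, with SMC1A at percentile 45.6 and 71.2. The site near IMPDH1, for an enzyme of guanine nucleotide synthesis (chr7:128020952-128021769), had a CTCF fold of 42.6 and 37.4. The site at PDLIM7, for a cytoskeletal adaptor (chr5:176918318-176919013), had 60.7 and 52.0. The remaining pair lay at antigen receptor V segments, the immunoglobulin pseudogene IGHVIII-38-1 (chr14:106873330-106874004) with 55.9 and 69.2, and the T cell receptor segment TRAV8-3 (chr14:22320057-22320880) with 70.7 and 47.4. V segments were then examined as a group, chosen after these sites were seen. Within 1 kb of the starts of 454 V segments there were 158 CTCF sites in set 1, of which 79 (50.0%) lacked STAG1, and 185 in set 2, of which 74 (40.0%) lacked it, beside 38.7% and 37.4% of all CTCF sites. By locus, the share was 60.8% and 40.2% at the immunoglobulin heavy chain locus, but 36.7% and 24.2% at the T cell receptor alpha and delta locus, which holds TRAV8-3 and lay below all CTCF sites. Those without STAG1 were of middle strength, with a median CTCF percentile of 53.5 and 49.7 against 24.0 and 25.1 for the class. V segments form families of related copies, so some reads there can be misplaced, and this was not tested.

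Promoters of 7 gene lists were then described, with a gene counted when a set 1 site that overlapped a set 2 site of the same class had its midpoint within 1 kb of any start. Sites that were in the class in each set but did not overlap were not counted. Over 20090 protein-coding genes, 34.7% had a CTCF-bound STAG1 site, 3.5% a CTCF-free STAG1 site and 12.2% a CTCF site without STAG1. Each list held 20 genes. Values are those of the strongest site of the class with its midpoint within 1 kb of a start in each set, which need not be the same place in both, and a gene with several starts can carry more than 1 class. Among melanocyte lineage genes, 9 had a CTCF-bound STAG1 site and 2 a CTCF-free site, MITF, the master factor of the lineage, and DCT, a pigment enzyme. MITF also had a CTCF-bound site at another start. The CTCF-free STAG1 site at MITF (chr3:69985330-69985883) was at percentile 20.3 and 53.0. The one at DCT (chr13:95131896-95132048) was at 5.94 and 36.2, so both were weak in set 1.

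Genes of the dedifferentiated melanoma state had 12 CTCF-bound and 0 CTCF-free promoters, and 6 had a CTCF site without STAG1, among them AXL, a receptor kinase. The CTCF site without STAG1 at AXL (chr19:41732174-41732519) was at CTCF percentile 27.9 and 49.1. Of cohesin and its regulators, 10 were CTCF-bound. The STAG1 gene itself carried a CTCF-bound STAG1 site (chr3:136469898-136472286) at percentile 96.2 and 99.6, and STAG2 (chrX:123093908-123094689) at 87.8 and 97.1. The 2 CTCF-free promoters of this list were SMC3, a ring subunit, at percentile 1.47 and 15.3, and SGO1, which protects cohesin at centromeres. The strongest CTCF-free sites at SGO1, at 20.3 in set 1 and 24.8 in set 2, were in different places. For interferon signalling, 9 were CTCF-bound, including IRF9 at percentile 59.0 and 66.1 and CD274, which encodes PD-L1, at 68.4 and 82.0. USP18, a negative regulator of the pathway, had the only CTCF-free site of this list, at 25.9 and 30.5.

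Genes of ERK feedback had the most CTCF-bound promoters among the 7 lists, 15 of 20, including DUSP4, a phosphatase of ERK, at percentile 46.9 and 70.7. Overlapping CTCF-free sites were counted at 3 of these 15, SPRY4, SPRED1 and SPRED2, all inhibitors of the pathway. Their CTCF-free STAG1 percentiles were 5.22 to 20.5 in set 1 and 29.0 to 39.3 in set 2, with the SPRY4 values from different places in each set. Housekeeping genes had 10 CTCF-bound and 2 CTCF-free promoters. TBP, the TATA-binding protein, stood at percentile 63.3 and 82.0 with a STAG1 fold of 19.8 and 21.9 (chr6:170863194-170863738). HNRNPA1 stood at 1.52 in set 1 and, at another place, at 32.0 in set 2. The list of liver genes taken as silent in melanocytes had 4 CTCF-bound and 1 CTCF-free promoter, and their expression in M14 was not examined here. Here APOB (93.7 and 96.4) and TTR (93.3 and 95.1) carried strong CTCF-bound STAG1 sites, and ALB a CTCF-free site at 38.1 and 53.1. Except for ERK feedback at 15 and the dedifferentiated state at 12, the CTCF-bound counts of 4 to 10 of 20 stood around or below 50%, beside the 34.7% of all genes, and lists of 20 chosen genes carry no test.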

How the data were processed

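Peak lists were deposited by the authors as 1 MACS2 list per library, called against input on hg19. Per the labels, reads were aligned with Bowtie2 in set 1 and with BWA in set 2, whose notes also name CASAVA 1.4, SAMtools, Picard and deepTools, and the study's methods name bowtie2 and the removal of duplicates. The deposited columns used were fold enrichment (a ratio of pileup to background at the summit), −log10 p-value, −log10 q-value and summit offset. Lists of set 1 had −log10 q of at least 2, whereas 12.2% of STAG1 and 6.91% of CTCF peaks of set 2 were below 2, so a site just under a threshold counts as absent.

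Overlaps, places (GENCODE 44 lifted to GRCh37) and motifs were computed in Python 3.11.15 with pandas 2.3.3 and pysam 0.24.0, and the functions were tested on simulated lists. No peak ran past a chromosome end. Depth was estimated from the lists, and its effect on weak sites was not tested. The members, gene lists and motifs were chosen with earlier results of these data known. Named sites were the 5 per class with the lowest sum of ranks over both sets and the 5 largest groups of CTCF-free sites. Alternatives were a common and a stricter threshold, other overlap rules, equal list lengths, ranking by fold, other promoter and motif windows, and each set alone.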

Additional observations from a re-analysis of the deposited data

Results flagged for a closer look

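Peaks outside chromosomes 1 to 22 and X entered no comparison and were present in all 4 lists. They made up 3.84% of the STAG1 list and 4.67% of the CTCF list in set 1, whose lists name patch and alternate scaffolds, and 0.186% and 0.271% in set 2. They were listed because no comparison used them, and nothing was tested on them.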

How the results depend on the processing

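Of 79 recomputed values, 63 moved by less than the SD between the sets, or for counts by less than 1.5 times, 13 moved further and 3 reversed. The 79 include values with 1 set left out. Leaving out 1 set always moves the mean by less than that SD, so these could only count as unmoved or reversed. The share of STAG1 sites with a CTCF peak was 88.4% at −log10 q of at least 5 and 69.8% with summits at most 100 bp apart. The share of CTCF sites with a STAG1 peak was 63.2%, 61.0% with an overlap of at least 50%, 53.4% by summits and 77.7% with equal numbers of peaks. With equal numbers, the percentile differences were 43.2 points for STAG1 and 42.1 for CTCF. CTCF-free STAG1 sites in both sets numbered 2645 at the stricter threshold, 8006 by summits and 7563 with equal numbers, and CTCF sites without STAG1 9109 with equal numbers. The promoter difference of STAG1 sites was 15.4 points by summits. It reversed to −0.920 without set 1 and was 11.3 without set 2. That of CTCF sites ran from −4.80 without set 1 to 7.78 without set 2, and was −0.171 with promoters of 500 bp; the cause was not tested. Leaving out 1 set gave 77.9% to 84.1%, 61.3% to 62.6%, 39.6 to 42.2 and 43.0 to 44.8 percentile points, 17.96 to 24.03 motif points, 15 to 20 bp and 11.7 to 22.5 SMC1A points for the other results, in the order of the report. The STAG1 promoter difference was positive in each set under the stricter threshold, at 12.2 and 8.05 points, and with equal numbers, at 11.7 and 8.50. All differences were taken within a set, and no test was run on them. Depth is an estimate here, and its effect on weak sites was not tested.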

Other observations

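CTCF sites were most often at promoters in the weakest 10% of the list, at 34.3% in set 1 and 25.7% in set 2. The strongest 10% were at promoters more often than the 10% next to them. Of the CTCF sites in the strongest 10% of the list, 27.3% in set 1 and 24.8% in set 2 were at promoters, against 17.9% and 16.3% of the next 10%. STAG1 sites had no such upturn, with 15.6% and 17.6% at promoters in the strongest 10% and 15.4% and 17.1% in the next.

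A single CTCF-bound STAG1 peak seldom met several CTCF peaks. This was so for 0.847% of them in set 1 and 2.83% in set 2, whose peaks were wider.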
